A study of Mus musculus with 47 samples.

Results

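The genes described here encode the Fas death receptor, the related TNF receptor and the proteins that carry their signals to caspases and to the JNK pathway, with which Daxx was first linked. They are Fas, Fadd, Casp8, Cflar, Bid, Map3k5, Ripk1, Tnfrsf1a and Jun, 9 of the 20456 genes in the count table. They were taken by symbol, with earlier results of these data known. All 9 were found once in the table, and all passed the filter on low counts, which kept 16892 genes. Fas is a receptor on the cell surface. When its ligand clusters it, the adaptor Fadd binds to its death domain and brings in the initiator caspase Casp8, while the caspase-like protein Cflar competes for the same place. Active Casp8 cuts Bid, and the cut Bid carries the signal to mitochondria, a step that hepatocytes are known to need in order to die through Fas. Tnfrsf1a, the type 1 receptor of TNF, uses the kinase Ripk1 to reach NF-κB, caspases or necroptosis. Map3k5, also called ASK1, is a stress-activated kinase upstream of JNK and p38, and Jun is the transcription factor that JNK phosphorylates. The Daxx protein was described early as a partner of Fas that activates Map3k5, and it is also a histone chaperone.

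The study asked what Daxx does in embryos once it can no longer bind the histone variant H3.3 (the S226A allele) or its partner Atrx (the Y130A allele). RNA was taken from embryonic liver, lung and brain at E18.5 (embryonic day), and the labels give the strain as C57BL/6. Per the methods, founders came from C57BL/6N zygotes and were then crossed to C57BL/6J. S226A embryos carried Daxx S226A on both chromosomes, Y130A embryos carried Daxx Y130A on both, and each was compared with wild-type littermates, which carried neither allele. Both alleles were knocked in with CRISPR/Cas9 together with silent changes, so they are present in every cell of the embryo and in all tissues, and nothing restricts them to cells that respond to Fas. The 47 libraries form 12 groups of 4, except that only 3 wild-type lungs came from Y130A litters, and they come from 17 embryos of 8 litters (4 litters per allele). The total count was 15722147 to 26190403 per library in the S226A litters and 36351738 to 54885020 in the Y130A litters. Markers of the labelled tissue were higher in every library of that tissue than in any library of the others, for 8 of 8 hepatocyte genes in liver, 7 of 7 lung epithelial genes in lung and 7 of 7 neuronal genes in brain. Wild-type liver replicate 2 of the S226A litters and Y130A liver replicate 1 stood apart, with 1060 and 718 CPM (counts scaled to library size) of 8 squamous epithelium genes against at most 9.5 in the other 14 livers, and calls in S226A liver that end without them are named beside the results.

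The codons that the alleles change both lie in exon 3 of Daxx (transcript Daxx-201, plus strand of chromosome 17, GRCm38), the tyrosine codon of Y130A at 33911400 to 33911402 and the serine codon of S226A at 33911688 to 33911690. They are shown because they are the codons by which the mutant groups were designed to differ from wild type. Each is given in the reference sequence with 30 bases on either side, the codon in capitals.
Codon changed in Y130A: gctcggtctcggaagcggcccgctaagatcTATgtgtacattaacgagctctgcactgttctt
Codon changed in S226A: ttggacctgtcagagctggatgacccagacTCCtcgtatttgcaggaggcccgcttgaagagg
Daxx RNA itself passed the test in none of the 6 comparisons of mutant and wild type: its log2 fold changes ranged from -0.12 (Y130A brain) up to 0.04 (S226A lung), and its lowest adjusted p was 0.857 (edgeR's quasi-likelihood test with Benjamini-Hochberg adjustment over the 16892 genes, as for every adjusted p given here). The counts cannot show the alleles themselves, so this does not check the labels. Protein was measured by the paper in E18.5 lung and in embryonic fibroblasts. There it reports more Daxx protein in Y130A and less in S226A than in wild type, most clearly in fibroblasts.

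The sequences upstream of Fas, Bid and Jun are shown because Fas had the largest difference between tissues, Bid was the member that differed in a mutant, and Jun is the transcription factor at the end of the JNK branch. They are RefSeq promoter windows on GRCm38.p6, which begin 250 bases before the annotated start site, printed up to the first annotated exon. Capitals mark matches, on either strand, to the letters searched. For general promoter elements these were TATAAA of the TATA element, then GGGCGG of the so-called GC box that Sp1 binds, and also CCAAT as bound by the factor NF-Y. For factors downstream of JNK they were TGACTCA as bound by AP-1 dimers and TGACATCA as bound by Jun in its own promoter. TGACGTCA, as bound by the CREB family, and the NF-κB and interferon response motifs were searched too.
Fas, chr19:34290409-34290658, plus strand: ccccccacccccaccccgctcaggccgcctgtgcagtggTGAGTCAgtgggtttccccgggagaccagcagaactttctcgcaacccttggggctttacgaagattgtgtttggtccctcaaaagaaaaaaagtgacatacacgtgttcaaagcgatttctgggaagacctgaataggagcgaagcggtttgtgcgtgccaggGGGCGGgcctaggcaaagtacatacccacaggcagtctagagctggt
Bid, chr6:120916854-120917074, minus strand: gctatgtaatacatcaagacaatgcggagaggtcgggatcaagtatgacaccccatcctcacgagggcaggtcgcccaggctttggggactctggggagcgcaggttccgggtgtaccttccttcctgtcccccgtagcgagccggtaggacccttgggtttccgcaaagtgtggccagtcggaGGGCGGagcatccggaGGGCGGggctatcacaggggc
Jun, chr4:95052223-95052472, minus strand: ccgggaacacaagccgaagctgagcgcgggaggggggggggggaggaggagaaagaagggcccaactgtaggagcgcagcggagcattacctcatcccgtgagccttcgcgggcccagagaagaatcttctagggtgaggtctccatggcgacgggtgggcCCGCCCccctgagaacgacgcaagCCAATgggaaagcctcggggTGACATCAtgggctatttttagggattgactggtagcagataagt
The genes lie, on GRCm38, at chromosome 19 from 34290666 to 34327772 for Fas (ENSMUSG00000024778.12), chromosome 6 from 120891930 to 120916853 for Bid (ENSMUSG00000004446.12) and chromosome 4 from 95049034 to 95052222 for Jun (ENSMUSG00000052684.4). The window of Fas held TGACTCA on the minus strand 211 bases before the start site, a motif found in 4.46% of the 32851 promoter windows of this length, and GGGCGG 47 bases before it. The window of Jun held TGACATCA 45 bases before the start site, found in 2.93% of windows, as well as CCAAT at 65 bases and GGGCGG on the minus strand at 89 bases. In the window of Bid, the only matches were to GGGCGG, at 66 and 50 bases before the start site and at 33 bases, where the match begins in the last bases shown, runs past them and is not in capitals. GGGCGG was found in 32.7% of windows and CCAAT in 33.8%. A match is a description of these letters and not of a factor that binds there.

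In wild-type embryos, the receptors Fas and Tnfrsf1a and the caspase Casp8 were lowest in brain, Bid was lowest in lung, and Jun was highest in lung. The values are RPKM, reads per kilobase of all annotated exons, scaled for library size, over 8 wild-type livers, 7 lungs and 8 brains of both litter sets. The receptor Fas was at 8.85 ± 1.42 in liver (SD, n = 8), 9.51 ± 2.27 in lung (n = 7) and 0.288 ± 0.0794 in brain (n = 8). In brain this rested on 9 to 35 reads per library. Tnfrsf1a followed the same order, with 23.4 ± 3.47 in liver, 29.9 ± 4.60 in lung and 2.28 ± 0.283 in brain. The initiator caspase Casp8 was at 15.4 ± 2.25 in liver, 14.2 ± 1.76 in lung and 1.18 ± 0.228 in brain. Its neighbour on chromosome 1, the decoy Cflar, which ends 36489 bases before Casp8 begins, was at 11.6 ± 0.712, 11.7 ± 0.594 and 2.35 ± 0.0847 in the same order. The kinase Ripk1 was at 10.2 ± 0.909 in liver, 9.38 ± 0.983 in lung and 2.10 ± 0.0638 in brain.

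Of the other members, Fadd and Map3k5 were also lowest in brain, while Bid and Jun were not. The adaptor Fadd was low in each tissue, with 2.26 ± 0.320 RPKM in liver, 1.73 ± 0.363 in lung and 1.15 ± 0.230 in brain. Bid, which links caspases to mitochondria, was at 7.02 ± 1.28 in liver and 5.81 ± 0.500 in brain but only 1.73 ± 0.368 in lung. The kinase Map3k5 was at 8.35 ± 1.19 in liver, 6.95 ± 1.71 in lung and 2.53 ± 0.385 in brain. Jun was the highest member in lung, at 54.8 ± 9.75, against 10.2 ± 3.41 in liver and 12.3 ± 1.90 in brain, and its lowest lung (44.6) lay above its highest liver and brain (14.0 and 14.7). The per-kilobase scale uses all annotated exons, so that it understates genes with long alternative exons such as Cflar (12669 bases). Levels on this scale were ordered in liver as Tnfrsf1a, Casp8, Cflar, Ripk1, Jun, Fas, Map3k5, Bid and Fadd. Tnfrsf1a at the top and Fadd at the bottom of this order did not overlap with their neighbour, and the ranges of the other neighbours did. In lung the order was Jun, Tnfrsf1a, Casp8, Cflar, Fas, Ripk1, Map3k5, Bid and Fadd, where the ranges of Jun and Tnfrsf1a, of Tnfrsf1a and Casp8, and of Map3k5 and Bid did not overlap and those of the other neighbours did. In brain the order was Jun, Bid, Map3k5, Cflar, Tnfrsf1a, Ripk1, Casp8, Fadd and Fas. There Jun lay above Bid and Bid above Map3k5 in every library, as Ripk1 lay above Casp8 and Fadd above Fas, while the ranges of the other neighbours overlapped.

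**Figure D1:**
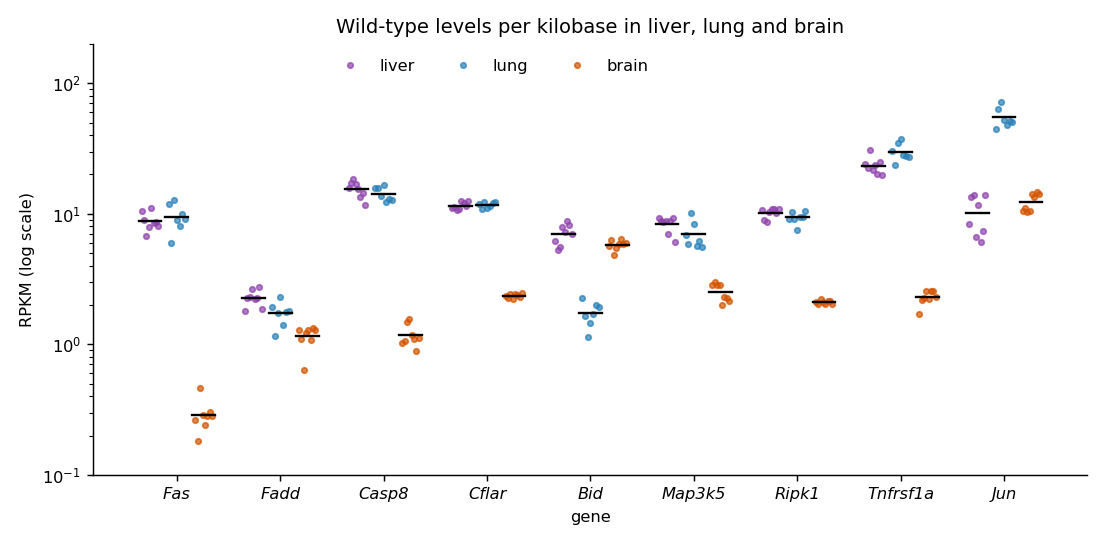
Wild-type level of each member in RPKM (log scale) in liver (n = 8), lung (n = 7) and brain (n = 8), with 1 point per library and a bar at the mean. The brain mean is the lowest for each member other than Bid and Jun, and the brain points of Fas lie between 0.182 and 0.461.

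On the log2 scale, brain was lower than liver by the following differences: -4.92 for Fas (SE 0.16), -3.71 for Casp8, -3.35 for Tnfrsf1a, -2.30 for Cflar, -2.28 for Ripk1, -1.73 for Map3k5, -0.98 for Fadd and -0.27 for Bid. The differences of these 8 passed the test, where 87.3% of all genes did, and Jun did not (0.27, adjusted p = 0.153). Bid is the least firm of the 8, since its adjusted p was 0.00923 and 7 members passed with RLE size factors in place of TMM, without Bid. Between brain and lung all 9 members passed (84% of all genes), with Fas at -5.01, Jun at -2.14 and, as the only member higher in brain, Bid at 1.73. Between lung and liver 5 members passed (80.1% of all genes). Jun was higher in lung by 2.41 (SE 0.19) and Tnfrsf1a by 0.34, whereas the log2 difference was -1.998 for Bid (SE 0.11), -0.40 for Fadd and -0.31 for Map3k5. In whole tissue, fewer cells of a type and less RNA per cell cannot be told apart.

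In S226A liver, Bid rose 1.54-fold, and no other member passed the test. Bid had 1102, 1063, 942 and 914 normalised read counts (counts scaled to a common library size) in S226A liver replicates 1 to 4, against 646, 550, 584 and 835 in wild-type littermate livers 1 to 4. All 4 mutant livers lay above all 4 wild-type livers, and Bid was higher in the mutant of 4 of 4 litters. The means were 1005 ± 91.4 and 654 ± 127 (SD, n = 4 each), with a log2 fold change of 0.62 (SE 0.14, 95% interval 0.34 to 0.90) and an adjusted p of 0.00133. The two-sided exact permutation test gave p = 0.0286, the smallest that 4 against 4 libraries allow, and 0.56 after Benjamini-Hochberg adjustment over the 54 tests of 9 members in 6 comparisons. That test shuffled libraries between the groups and did not keep the litter pairs. The count of 1 of 9 members called stands near the background, since 11.7% of all tested genes were called in S226A liver and 11.9% had groups that did not overlap. At an unadjusted p below 0.05 stood 2 of 9 members, Bid and Tnfrsf1a, and 24.7% of all genes. Without the livers that held squamous transcripts, Bid still passed, at 0.545 on the log2 scale with an adjusted p of 0.0106.

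Several measures stand beside this value of Bid. Bid shares 628 of its 3550 annotated exon bases with Bcl2l13 on the opposite strand, the counting is not stated to use strand, and Bcl2l13 itself had a log2 fold change of -0.09 (adjusted p = 0.547). Markers of blood cells also differed in S226A liver. Of 12 macrophage markers 12 were called lower, with a summed level of 247 to 337 CPM in S226A against 1011 to 1184 in wild type, and Vsig4 was at 0 reads in all S226A livers. Of 12 neutrophil and precursor markers 11 were called higher, at 9031 to 9707 CPM against 3125 to 3726. Of 9 B lineage markers 4 were called lower, at 57.5 to 131 CPM against 152 to 184, while 0 of 8 hepatocyte, 0 of 7 erythroid and 0 of 9 T and NK markers were called, and 0 of each list had an unadjusted p below 0.05 (edgeR). The summed hepatocyte markers still lay lower without overlap, at 171100 to 206100 CPM in S226A liver against 209300 to 214700 in wild type, with 1 of 8 genes above 0 and a median log2 fold change of -0.15. Erythroid markers were at 4451 to 4935 CPM against 4798 to 6108, with 0 of 7 above 0 and a median of -0.30, and T and NK markers at 19.6 to 28.3 CPM against 15.3 to 29.1, with 3 of 9 above 0 and a median of -0.30. The part of any of these lists in the level of Bid was not tested. The wild-type livers of the Y130A litters had 820 ± 87.1 normalised counts of Bid, beside 654 in the wild type of the S226A litters (log2 difference -0.32, adjusted p = 0.103) and 1005 in S226A liver.

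**Figure D2:**
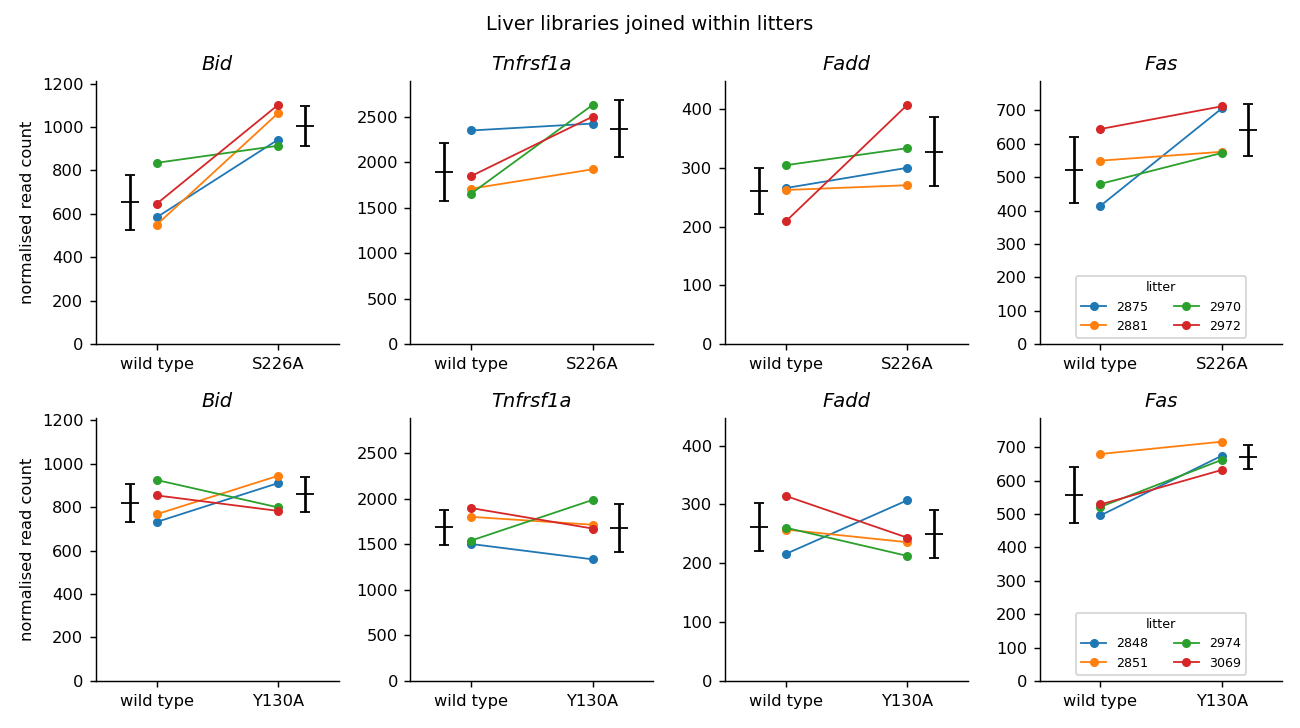
Normalised read counts of Bid, Tnfrsf1a, Fadd and Fas in liver, each wild-type library joined to the mutant of its litter, for S226A (top) and Y130A (bottom), with mean and SD beside the points (n = 4 per group). The S226A lines of these genes all go up, and in the Y130A litters those of Fas do but those of Bid do not all do so.

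The receptors and the adaptor did not pass in S226A liver, although their means were above wild type. Tnfrsf1a had 2501, 1922, 2425 and 2629 normalised counts in S226A replicates 1 to 4 and 1848, 1709, 2349 and 1656 in wild type, so that the groups overlapped through S226A replicate 2 and wild-type replicate 3. Its log2 fold change was 0.33 (SE 0.12, adjusted p = 0.0838, exact p = 0.0571), and it passed only when either of these libraries was left out, with adjusted p of 0.0299 without S226A replicate 2 and 0.0195 without wild-type replicate 3. Fas had 712, 576, 706 and 573 normalised counts in S226A liver and 644, 550, 414 and 480 in wild type. The groups overlapped, and the log2 fold change was 0.30 (SE 0.18, adjusted p = 0.309). Fadd had 407, 270, 300 and 333 against 209, 262, 265 and 304, with overlap through wild-type replicate 4, and a log2 fold change of 0.33 (SE 0.18, adjusted p = 0.255). Each of these genes was higher in the S226A embryo of 4 of 4 litters, and so were Map3k5, at 0.16 (adjusted p = 0.467), and Casp8, at 0.10 (adjusted p = 0.655). The share of all genes that were higher in 4 of 4 litters was not counted. Ripk1 was at 0.03 (0.857) and Cflar at -0.01 (0.987). Cflar had the narrowest 95% interval of the members, -0.11 to 0.10 on the log2 scale. The median over the 9 members was 0.16, beside -0.01 over all tested genes.

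Jun went the other way in S226A liver, without passing the test. It had 1181, 513, 611 and 729 normalised counts in S226A replicates 1 to 4 (litters 2972, 2881, 2875 and 2970) and 791, 1262, 1321 and 623 in the wild-type livers of the same litters. The mutant was lower in litters 2881 and 2875 and higher in litters 2972 and 2970. The log2 fold change was -0.40 (SE 0.26, adjusted p = 0.362), with the widest interval of the members, -0.93 to 0.12.

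**Figure D3:**
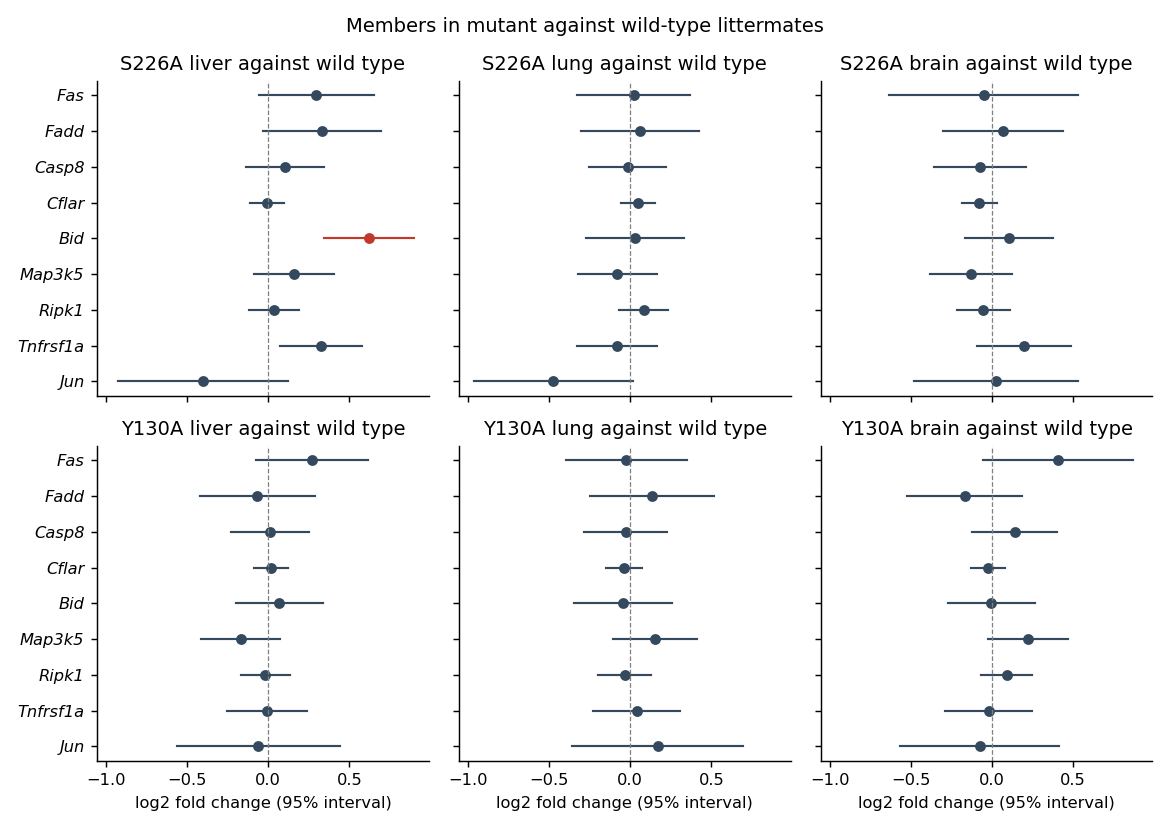
Log2 fold change of each member in mutant against wild-type littermates, with its 95% interval from the edgeR fit, in 6 panels of 1 allele and 1 tissue each (n = 4 per group, 3 wild-type lungs in the Y130A litters). Red marks the only value with an adjusted p below 0.05, Bid in S226A liver at 0.62.

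In S226A lung and S226A brain, 0 of 9 members passed, where 1.88% and 0.243% of all genes did, and 0 of 9 had an unadjusted p below 0.05, against 16.2% and 2.27% of all genes. Fas had 702, 585, 578 and 576 normalised counts in S226A lungs 1 to 4 and 722, 365, 776 and 542 in wild-type lungs, so that the wild-type libraries enclosed the mutant ones (log2 fold change 0.02, SE 0.17). In brain it had 24.8, 13.8, 11.1 and 20.8 against 16.2, 11.1, 28.1 and 17.5, which are 9 to 27 reads per library, with a log2 fold change of -0.05 and a 95% interval of -0.64 to 0.53. Bid, which rose in liver, was at 0.03 in lung (SE 0.15, adjusted p = 0.964) and 0.10 in brain (SE 0.13, adjusted p = 1). The difference between its liver and lung effects was 0.59 (SE 0.20, adjusted p = 0.0692) and that between liver and brain 0.52 (SE 0.19, adjusted p = 0.145), so that neither passed with edgeR. The tissues came mostly from the same embryos, with all 3 from 14 of 17, and this fit has no term for the embryo. In a fit with embryo as a block, chosen after seeing the data, the differences were 0.68 (SE 0.21, adjusted p = 0.0574) and 0.53 (SE 0.18, adjusted p = 0.128), and the wild-type lung of litter 2970, from an embryo with no other tissue, no longer counted. The difference between liver and lung passed with DESeq2, and with edgeR without wild-type liver replicate 4, wild-type lung replicate 3 or S226A lung replicate 2. That between liver and brain passed without wild-type liver replicate 4. Tnfrsf1a, at 0.41 between liver and lung (adjusted p = 0.164), passed without wild-type lung replicate 2. For these differences 6.9% and 3.71% of all genes passed. The remaining members lay between -0.13 (Map3k5 in brain) and 0.20 (Tnfrsf1a in brain), other than Jun in lung.

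Jun in S226A lung had the lowest unadjusted p of the members there, with a log2 fold change of -0.47 (SE 0.24, adjusted p = 0.327, edgeR). It had 5292, 2767, 3325 and 4460 normalised counts in S226A lungs 1 to 4 (litters 2972, 2881, 2875 and 2970) and 4201, 6029, 6806 and 4962 in their wild-type littermates. As in liver, the 2 wild-type libraries with the highest Jun came from litters 2881 and 2875, and in litter 2972 the mutant was higher. In brain no wild-type library stood apart, and Jun was at 1055, 835, 971 and 1206 in S226A and 990, 1045, 972 and 994 in wild type (log2 fold change 0.02, SE 0.25).

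Fos and Fosb were high in the same lungs, and Fosl2 was not. Fos, which pairs with Jun in AP-1, had 3489 and 3079 normalised counts in wild-type lung of litters 2881 and 2875, and 442 in that of both other S226A litters. In S226A lungs it ran from 132 to 1782, with the highest value in litter 2972. Fosb, another AP-1 partner, had 709 and 675 in the same wild-type lungs against 12.5 and 30.8 in the others, and the orphan receptor Nr4a1, an immediate-early gene, had 2182 and 1149 against 209 and 311. In the Y130A litters, mutant lung replicate 3 (litter 2974) had 8265 of Jun, 3508 of Fos and 2215 of Nr4a1, against at most 4881 of Jun, 1146 of Fos and 721 of Nr4a1 in the other lungs of those litters. Fosl2, another partner, did not follow, with 2447 and 3425 in wild-type lung of litters 2881 and 2875 against 2389 and 3764 in that of litters 2972 and 2970. In the same wild-type embryos of litters 2881 and 2875, Fos was also above both other litters in liver (456 and 251 against 171 and 111). It was so in brain too (177 and 111 against 27.3 and 59.1). Fosb was so in brain (34.4 and 13.5 against 0 and 3.28), but in liver litter 2875 had 65.8 and litter 2972 had 69.0. Egr1 was so in neither tissue. These lungs are single libraries of either genotype. Fos, Fosb and Nr4a1 were picked after their values were seen, and what set these lungs apart was not tested.

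**Figure D4:**
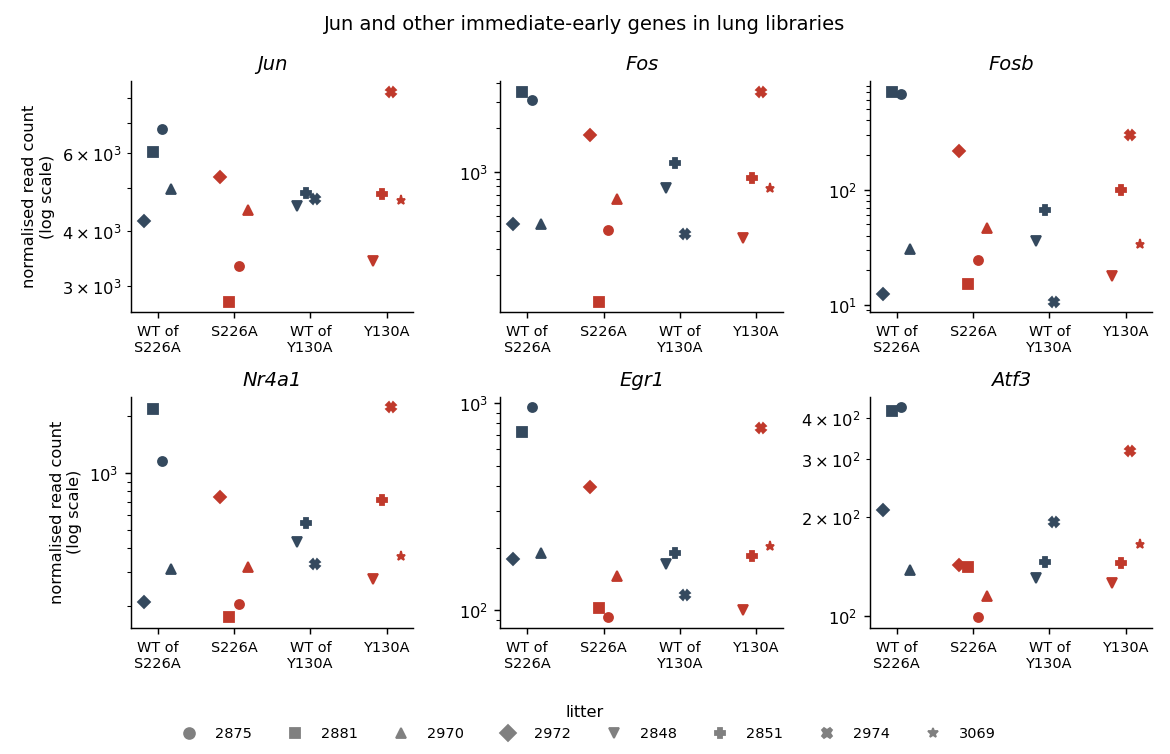
Normalised read counts (log scale) of Jun and 5 other immediate-early genes in the 15 lung libraries, by group (dark grey wild type, red mutant), with 1 symbol per litter. The wild-type lungs of litters 2881 and 2875 and the Y130A lung of litter 2974 lie at the top of their groups for each gene.

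In the Y130A litters, 0 of 9 members passed in liver, lung or brain, where 0.272%, 0.0178% and 0.00592% of all genes did, and 0 of 9 had an unadjusted p below 0.05 in any of them, against 9.22%, 2.92% and 2.22% of all genes. Fas had 674, 716, 662 and 632 normalised counts in Y130A livers of litters 2848, 2851, 2974 and 3069, against 495, 679, 521 and 528 in the wild-type livers of these litters. It was higher in the mutant of 4 of 4 litters, although the groups overlapped through the wild-type liver of litter 2851, and its log2 fold change of 0.27 (SE 0.17, adjusted p = 0.731) was near the 0.30 of S226A liver. In brain Fas had 18.6, 27.6, 25.9 and 17.4 against 14.7, 17.3, 18.4 and 17.3 (29 to 50 and 27 to 35 reads), a log2 fold change of 0.40 (SE 0.23, adjusted p = 1, exact p = 0.0571). In lung it had 476, 556, 594 and 543 against 495, 605 and 552 in 3 wild-type lungs, a log2 fold change of -0.02 (SE 0.18).

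Map3k5, the kinase through which Daxx was tied to JNK, was the only other member whose groups did not overlap. It ran from 437 to 480 normalised counts in Y130A brain and from 362 to 416 in wild type, with means of 459 ± 17.7 and 393 ± 23.9 (n = 4 each). The exact permutation test gave its smallest p, 0.0286, while edgeR gave a log2 fold change of 0.22 (SE 0.12, p = 0.0744, adjusted p = 1), and 4.75% of all genes had groups that did not overlap in this comparison. No member had groups apart in S226A lung and brain or in Y130A liver and lung, where 3.81%, 2.48%, 2.35% and 4.16% of all genes did. In Y130A liver Map3k5 was at -0.17 (adjusted p = 0.793) and in lung at 0.15 (adjusted p = 1). The mutant was the higher one in 4 of 4 litters in brain and in 0 of 4 in liver. Jun had 634, 1199, 781 and 909 normalised counts in Y130A livers 1 to 4 and 1306, 1099, 571 and 694 in wild-type livers of the same litters (log2 fold change -0.06, SE 0.25). In lung it had 3419, 4848, 8265 and 4689 in Y130A and 4552, 4881 and 4721 in wild type (0.17, SE 0.26). In brain it had 1272, 1272, 1205 and 1284 in Y130A and 1325, 1257, 1386 and 1338 in wild type (-0.08, SE 0.24). Bid was at 859 ± 80.2 in Y130A liver against 820 ± 87.1 in wild type, a log2 fold change of 0.07 (SE 0.13) whose 95% interval ran from -0.20 to 0.34, and was at -0.04 (SE 0.15) in lung and -0.0045 (SE 0.13) in brain. The other values of Fadd, Casp8, Cflar, Ripk1 and Tnfrsf1a lay between -0.17 (Fadd in brain) and 0.14 (Casp8 in brain).

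The difference between the alleles was tested directly, and 0 of 9 members passed in liver, lung or brain, where 5.9%, 0.308% and 0.0829% of all genes did. The closest was Bid in liver, where the S226A effect exceeded the Y130A effect by 0.55 on the log2 scale (SE 0.19, adjusted p = 0.0789). DESeq2 called this difference, and edgeR did so without wild-type liver replicate 4 of the S226A litters. In lung the widest was Jun, at -0.64 (SE 0.36, adjusted p = 0.564), and in brain Fas, at -0.46 (SE 0.37, adjusted p = 1), followed by Map3k5 at -0.35 (SE 0.17, adjusted p = 1).

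Wild-type levels were also compared between the litter sets, which differ in depth and whose totals did not overlap. In liver 0 of 9 members passed (13.1% of all genes), with Cflar at -0.14 (SE 0.05, adjusted p = 0.0638) and Casp8 at 0.32 (SE 0.12, adjusted p = 0.0664, S226A litters minus Y130A litters) closest. Casp8 passed with DESeq2 and with RLE size factors, Bid without wild-type liver replicate 4 of the S226A litters and Cflar without replicate 3 of the Y130A litters. In lung 1 of 9 passed (20.1% of all genes): Map3k5 had 1243, 1052, 1825 and 1504 normalised counts in wild-type lungs of the S226A litters and 1012, 1109 and 1009 in those of the Y130A litters, a log2 difference of 0.43 (adjusted p = 0.0155). The sets overlapped, and the call was lost without replicate 3 or 4 of the S226A litters or replicate 1 or 3 of the Y130A litters. In brain 1 of 9 passed (5.98% of all genes), again Map3k5, at 509 to 536 against 362 to 416 and a log2 difference of 0.40 (adjusted p = 0.0448). The brain call was lost on leaving out any 1 of the 8 libraries. The litter set and the depth cannot be told apart here.

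Of the other genes of these pathways, 113 in 8 lists with Daxx among them, 111 were tested, and 19 were called in S226A liver (beside 11.7% of all genes), 12 higher and 7 lower. Their median log2 fold change was 0.03, beside -0.01 over all tested genes, and 34 had an unadjusted p below 0.05 (24.7% of all genes, edgeR). Apaf1, Bak1, Eda2r, Fosl2, Nfkbia, Tnip1 and Traf3 were called under each of the 14 alternative fits, and the other 12 were lost in at least 1. When only the S226A and wild-type livers entered the fit, 11 were called, of which Fosb and Tnfrsf1b were not among the 19, and DESeq2 called 25. Without the livers that held squamous transcripts, Ccn2 (adjusted p = 0.0745), Map2k7 (0.0585), Mapk8 (0.132) and Tnfaip3 (0.0773) did not pass. The calls of Ccn2, Gadd45b, Klf6, Map2k7, Mapk8, Mapk9, Tnfaip3 and Txn1 were each lost on leaving out any of at least 4 of the 8 livers. That of Tnfrsf12a was lost without S226A or wild-type replicate 1, and that of Bcl2l1 without S226A replicate 2. Fasl, the ligand of Fas, had at most 29 reads in any library and was picked after its values were seen, and 0 of 6 ligands tested were called, with 1 at an unadjusted p below 0.05 (edgeR). Among 8 receptors, Eda2r, which binds ectodysplasin A2, had 132, 131, 89.6 and 90.2 normalised counts in S226A livers against 47.2, 7.77, 0 and 14.5 in wild type. It was the only pathway gene to pass the stricter criteria (adjusted p below 0.01, log2 fold change beyond 1, SE below 1), where 2.1% of all genes passed them, with a log2 fold change of 2.64 (SE 0.53, adjusted p = 0.000452) that rests on 0 to 26 wild-type reads. Without wild-type replicate 1, which has the 26 reads, it was 3.83, and over all alternatives it ran from 2.25 to 3.83. Tnfrsf12a, the receptor of TWEAK, fell, at -1.04 (SE 0.29, adjusted p = 0.0136). Pea15a, a death effector domain protein that binds Fadd, fell in the list of 10 adaptors and necroptosis genes, at -0.45 (adjusted p = 0.000806).

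Downstream of the TNF receptor, 4 of 16 genes of the receptor complex and its NF-κB brakes rose in S226A liver and 0 fell. This count, and those of 1 of 10, 3 of 15, 5 of 27 and 3 of 19 in the lists that follow, are to be read beside the 11.7% of all genes called. Tnip1, which restrains NF-κB together with Tnfaip3, went from 618 ± 68.5 to 1050 ± 110 normalised counts (log2 fold change 0.77, adjusted p = 3.25e-06), and the adaptor Traf3 from 853 ± 155 to 1332 ± 76.7 (0.64, adjusted p = 6.51e-06). Nfkbia, the inhibitor that holds NF-κB in the cytoplasm, rose by 0.61 and Tnfaip3 by 0.44 on the log2 scale, the latter lost in 9 of 14 alternatives. Among 10 executioner caspases and apoptosome genes, only Apaf1, the scaffold of the apoptosome, was called, with 3075 ± 107 against 2199 ± 52.9 (0.48, SE 0.06, adjusted p = 2.57e-07). Of 15 genes of the Bcl-2 family, through which cut Bid acts, the pore-former Bak1 rose by 0.46 and the survival gene Bcl2 by 0.40, while the survival gene Bcl2l1 fell (-0.26). Of 27 JNK cascade genes, the JNK kinase Map2k7 (-0.34) and the JNK genes Mapk8 (-0.22) and Mapk9 (-0.19) fell, and Gadd45b (0.61) and Txn1 (0.33), whose product thioredoxin binds Map3k5, rose. With litter as a block, Mapk8 (adjusted p = 0.0755) and Mapk9 (adjusted p = 0.0553) did not pass. Of 19 AP-1 and immediate-early genes tested, Fosl2 (0.56) and Klf6 (0.38) rose and Ccn2 (-0.56) fell. The median of this list was -0.32, with 6 of 19 genes above 0, beside -0.01 over all tested genes. The wild-type livers of litters 2881 and 2875 belong to this contrast. They had 456 and 251 normalised counts of Fos against 171 and 111 in the others, but were not both above the others for Junb or Atf3. Their part in the median was not tested. The macrophage and neutrophil markers given above moved in S226A liver, and the part of these markers in the values of the lists was not tested.

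**Figure D5:**
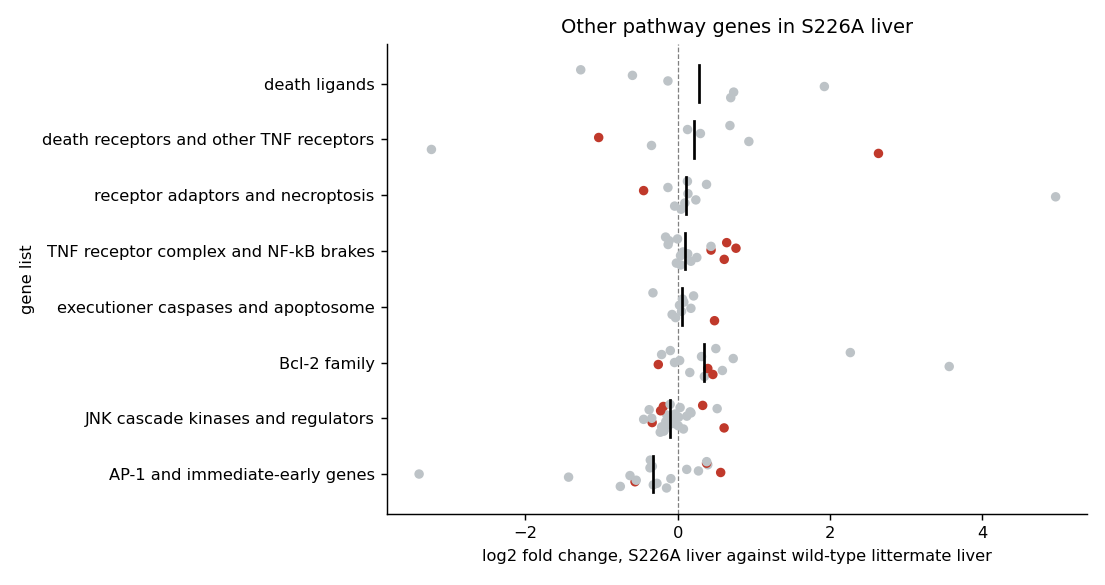
Log2 fold change of the 111 other pathway genes tested in S226A liver against wild-type littermate liver, by list, with 1 point per gene (red, adjusted p below 0.05; grey, not passed) and a black bar at the list's median. The red points number 19, and the rightmost of them is Eda2r at 2.64.

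In S226A lung, 2 of 111 were called, beside 1.88% of all genes, and both fell: Tnfrsf1b, the type 2 TNF receptor, from 534 ± 90.9 to 312 ± 19.4 normalised counts (log2 fold change -0.77, SE 0.14, adjusted p = 0.00101), and the stress-induced factor Atf3, from 300 ± 148 to 124 ± 21 (-1.27, SE 0.33, adjusted p = 0.0306). Tnfrsf1b did not overlap between the groups, at 283 to 322 against 430 to 632. Macrophage markers summed to 144 to 184 CPM in these lungs against 189 to 250 in wild type. Of the 12, 3 were called lower and 1 higher. Neutrophil and precursor markers summed to 145 to 198 CPM against 40.2 to 85.6, with 5 of 12 called higher and 1 lower. The part of either list was not tested. Atf3 was highest in the wild-type lungs of litters 2881 and 2875 described above, and did not pass with litter as a block (adjusted p = 0.0558), nor without S226A lung replicate 2, 3 or 4 (0.0750, 0.0635 and 0.0860) or wild-type lung replicate 3 (0.162). The number of genes called was 9 without wild-type lung replicate 1, 7 without replicate 2 and 5 without S226A lung replicate 1, was 1 without wild-type replicate 3 or S226A replicate 2 or 4, and was 0 when only the lungs compared entered the fit. An unadjusted p below 0.05 was found for 21 of the 111 in S226A lung, 9 of them AP-1 and immediate-early genes, beside 16.2% of all genes (edgeR). The AP-1 and immediate-early list had a median of -0.45 in S226A lung, with 18 of 19 genes below 0, beside 0.0035 over all tested genes. The wild-type lungs of litters 2881 and 2875, high for Fos, Fosb, Egr1, Nr4a1, Junb and Atf3, belong to this contrast, and their part in the median was not tested. In S226A brain and in all 3 tissues of the Y130A litters, 0 of 111 were called, with 4 genes at an unadjusted p below 0.05 in S226A brain, 7 in Y130A liver, 5 in Y130A lung and 4 in Y130A brain (edgeR), where 2.27%, 9.22%, 2.92% and 2.22% of all genes had one. DESeq2 called 0 in S226A brain and 0 in Y130A brain, and 1 in each of Y130A liver (Tnfsf12) and lung (Mapk8ip2).

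Over the 47 libraries, the genes whose log2(CPM + 1) followed each member most closely were found by Pearson's r, as a description only, since the points share libraries and tissues. Fas was most like Cast, Cflar and Ppp2r5a (Pearson's r = 0.994, 0.994 and 0.993), Cflar most like Cast, Elf1 and Hsd11b1 (0.998, 0.997 and 0.997), and Ripk1 most like Ppp2r5a, Cast and Hsd11b1 (0.995 each). Casp8 was most like Tln1, Sec14l4 and Lyn (0.995, 0.994 and 0.993) and Tnfrsf1a most like Rhbdf2, Akap13 and Erbb3 (0.994 each). Map3k5 followed Tbc1d2b, Arfgef2 and Dock5 (0.98, 0.979 and 0.979). Bid, low in lung, followed Svip, Nipsnap1 and Plcxd2 (0.973, 0.972 and 0.969), and Jun, high in lung, followed Loxl1, Tsc22d3 and Lpar3 (0.962, 0.958 and 0.958). Fadd reached 0.907 with Mindy1 and Rinl and 0.904 with C5ar1. Of these lists, Cast was shared by Fas, Cflar and Ripk1, and Cflar was the only member in the list of another.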

How the data were processed

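Total RNA of flash-frozen liver, lung and brain was sequenced by the authors. Per the labels and methods, reads were trimmed with Trim Galore 0.6.5, checked with FastQC 0.11.5 and counted per gene with STAR 2.6.0b on GRCm38 with a GENCODE annotation, and the deposited values are raw counts per gene, not normalized. Whether counting used strand is not given in the sources used here. The 9 genes and all lists were chosen with earlier results of these data known.

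Libraries were grouped by tissue, genotype and litter set. Counts were filtered with filterByExpr (minimum count 10, minimum total 15), scaled with TMM and fitted in edgeR 4.0.16 (R 4.3.3, limma 3.58.1) by the quasi-likelihood test, with 1 coefficient per group over 47 libraries, as litter pairing was kept for an alternative. A gene was called at a Benjamini-Hochberg adjusted p below 0.05 over all 16892 tested genes. Normalised counts were scaled to an effective library size of 29553745, the geometric mean over libraries. RPKM used the union of GENCODE M21 exons, a later release than the one counted. Exact permutation tests (scipy 1.17.1, Python 3.11.15) were two-sided and did not keep the litter pairs. Figures used matplotlib 3.10.9.

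Values are given for the 9 genes in each comparison, singly or within a range, per library for Fas and Jun and, in S226A liver, for the 3 genes of lowest adjusted p (Bid, Tnfrsf1a and Fadd), for pathway genes with an adjusted p below 0.05 (at most 4 per list, direction and comparison), for Daxx and for the 3 genes most like each member. Alternatives were DESeq2 1.42.0, RLE size factors, no filter, only the libraries compared, litter as a block, embryo as a block for differences between tissues (for mutant effects chosen after seeing the data), stricter criteria, livers with squamous transcripts left out and each library left out in turn.

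Litter numbers in the labels pair mutant and wild-type littermates. Of 23 littermate pairs, 18 deviated together from their group means (correlation over 0.1, median 0.213), against 5 of 69 pairs from different litters (median -0.0614). No replicates were copies: in 69 replicate pairs, the chi-square statistic over genes was at least 4.17 times its degrees of freedom. The depth was 15722147 to 54885020 counts per library, at which Fas in brain had 9 to 50 reads. The wild-type lung of litter 3069 was not analysed here.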

Additional observations from a re-analysis of the deposited data

Results flagged for a closer look

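Among 99 groups of 4 libraries examined, 4 held a library set apart from the other 3 by Dixon's ratio (critical value 0.829), and chance alone sets apart about 1 group in 20. Casp8 in S226A lung was lowest in replicate 3 (litter 2875), with 1155 normalised counts against 1342 to 1366 in the others (ratio 0.884). Fas in S226A lung was highest in replicate 1 (litter 2972), with 701.9 against 576.3 to 585.3 (ratio 0.928). Jun in Y130A brain was lowest in replicate 3 (litter 2974), with 1205 against 1272 to 1284 (ratio 0.846). Ripk1 in S226A liver was lowest in replicate 1 (litter 2972), with 2376 against 2452 to 2459 (ratio 0.917). None of these members was called in these comparisons.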

How the results depend on the processing

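Of 711 values of the members under an alternative, 709 kept their direction where called and their side of the threshold, and 2 came to pass it, both of Tnfrsf1a in S226A liver (0.446 without wild-type replicate 3 and 0.414 without S226A replicate 2, log2). Bid in S226A liver passed under each of its 14 alternatives, at 0.545 to 0.76 on the log2 scale with adjusted p of 0.000114 to 0.0106 (edgeR or DESeq2). Of 695 uncalled values, 66 had the opposite sign. Of 27 counts, 16 stayed within 1.5 times the main count under every alternative run, among them 7 to 9 members between wild-type brain and liver (main 8) and 5 to 6 between lung and liver (main 5). The cause of the shifts was not tested unless the alternative's construction gives it.

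DESeq2 called 25 pathway genes in S226A liver (19 with edgeR), 4 in S226A lung, 1 in Y130A liver and 1 in Y130A lung, 1 member (Bid) in the allele difference in liver and 1 (Bid) in the difference of S226A between liver and lung, and for the wild-type litter sets 1 member in liver (Casp8) and 2 in lung. RLE size factors called 1 member between the wild-type livers. With only the libraries compared, which leaves fewer samples, 11 pathway genes were called in S226A liver and 0 in S226A lung. The stricter criteria called 0 members and 1 pathway gene in S226A liver and 0 pathway genes in S226A lung. Leaving out 1 library gave 1 to 2 members in S226A liver, 0 to 1 for the allele difference in liver and for S226A between liver and brain and between liver and lung, and 0 to 0, 0 to 1 and 0 to 2 between the wild-type brains, livers and lungs of the litter sets. For pathway genes it gave 13 to 19 in S226A liver and 1 to 9 in S226A lung.

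With litter as a replicate block, Bid in S226A liver was at 0.634 (adjusted p = 0.00530, edgeR), and no call of a member in a mutant comparison changed. With embryo as a replicate block over all libraries, 0 members passed in each of the 6 differences of a mutant effect between tissues, as without it. For S226A, 4.66% of all genes passed between liver and lung, 3.49% between liver and brain and 0.071% between lung and brain. For Y130A these shares were 0.0118%, 0.0237% and 0%. Among the named pathway genes the litter block ended the calls of Mapk8, Mapk9 and Atf3. The Y130A lung of litter 3069 has no wild-type partner in the fit with litter as a block.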
